A study of Ovis aries with 16 samples.

Results

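The genes described here are the steroid receptors ESR1, ESR2, PGR, NR3C1 and NR3C2, the membrane oestrogen receptor GPER1, and the oestrogen-related receptors ESRRA, ESRRB and ESRRG. They were taken by symbol from a list of 9 names, and all 9 were among the 28524 rows of the deposited table of normalized read counts. RNA sequencing had been carried out on liver (left lobe, at its tip) and on vastus lateralis, a thigh muscle, of 8 female Suffolk sheep. The BPA group was 4 sheep whose mothers had been injected under the skin each day with bisphenol A (BPA), a plasticizer with oestrogen-like activity, at 0.5 mg/kg from day 30 to day 90 of gestation. The control group was 4 sheep whose mothers had received the corn oil vehicle over the same days. All 8 were killed for sampling when about 21 months old. They had fasted for 48 hours and were in the late follicular phase, when circulating oestradiol is high, 24 hours after the second prostaglandin F2α injection of a synchronized cycle. The exposure was thus to the mothers, long before sampling, and how many mothers the 4 sheep of a group came from is not given in the sources used here. Each sheep gave both tissues, so that 4 libraries stood in each of the groups BPA liver, control liver, BPA muscle and control muscle.

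Steroid receptors are proteins that wait in the cell on chaperones of the HSP90 family, bind their hormone, and then switch target genes on or off together with coactivators and corepressors. ESR1 and ESR2 encode the oestrogen receptors alpha and beta, PGR the progesterone receptor, NR3C1 the glucocorticoid receptor and NR3C2 the mineralocorticoid receptor, whereas GPER1 encodes a receptor of the cell membrane that is coupled to G proteins. The oestrogen-related receptors resemble ESR1 in sequence but do not need oestradiol. They act with the coactivators of the PGC-1 family on genes of mitochondrial energy production, and in human proteins BPA binds ESRRG tightly and ESR1 weakly.

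The livers had between 4.39 and 19.28 M recovered reads each and the muscles between 15.15 and 28.54 M (M, 1e6). The tissues matched their labels: the summed level of 9 hepatocyte markers was 54413 to 1390759 normalized counts in livers and 4501 to 14501 in muscles, and that of 9 skeletal muscle fibre markers was 395 to 1341 in livers and at least 5275402 in muscles. Liver libraries varied far more within a group than muscle libraries, with a median coefficient of variation over all genes tested of 42.0% in BPA livers, 33.9% in control livers, 14.2% in BPA muscles and 13.1% in control muscles. Control liver 902 stood apart from the rest. It held 10447 normalized counts of ALB, which encodes albumin, where the other livers held 91332 or more, and 43399 of COL1A1, which encodes collagen I, where they held 1956 or fewer. BPA liver 910 lay close to control livers 908, 924 and 928 in depth and in hepatocyte markers, and the other BPA livers did not. Depth and treatment were partly joined in liver, since control 902 and BPA 918, 977 and 984 had 4.39 to 10.64 M reads and the other livers 17.92 M or more. Results in liver are therefore also given without control 902, without BPA 910 or without both. Both livers were singled out from these same data, and leaving out a BPA liver that lies close to controls favours a wider gap between groups. Calls made without BPA 910 are therefore given as a description.

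The oestrogen receptors differed between the tissues, as did 71.4% of all genes tested: ESR1 and GPER1 were higher in liver, and ESR2 had hardly any reads there. ESR1 measured 2974, 1062, 1432 and 1504 normalized counts in BPA livers 910, 918, 977 and 984 and 4012, 2178, 2895 and 2372 in control livers 902, 908, 924 and 928. In muscle of the same animals, in the same order, it measured 880, 1055, 698 and 808 in BPA sheep and 1158, 765, 968 and 799 in controls. BPA liver 918 fell within the muscle range and every other liver lay above it. The difference was 1.27 on the log2(value + 1) scale on which all differences below are given (SE 0.20, adjusted p = 3.34e-05, limma). Within animals the liver exceeded the muscle by 0.01 in sheep 918 and by 0.90 to 1.79 in the other 7 (log2).

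GPER1 measured 55.8, 102, 261 and 214 normalized counts in BPA livers 910, 918, 977 and 984 and 109, 70.9, 66.8 and 43.6 in control livers 902, 908, 924 and 928. Muscles held 37.9, 25.3, 28.1 and 39.7 in the BPA group and 24.4, 27.0, 37.6 and 30.3 in controls. No muscle reached the lowest liver, and liver exceeded muscle by a log2 difference of 1.61 (SE 0.29, adjusted p = 0.000121), with a gap of 0.51 to 3.17 within animals.

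ESR2 was close to the detection limit in liver. The reads behind it numbered 1, 1, 4 and 0 in BPA livers 910, 918, 977 and 984 and 1, 0, 1 and 1 in control livers 902, 908, 924 and 928, or 0 to 4.99 normalized counts. In muscle ESR2 measured 16.7, 26.9, 36.5 and 14.6 normalized counts in BPA sheep and 30.4, 6.74, 14.1 and 34.3 in controls. The lowest muscle lay above the highest liver, and the fitted log2 difference was -3.38. ESR2, like ESRRB and ESRRG, reached the mean of 10 that the filter asks for only through its muscle levels and so had to differ, and for these 3 genes the difference is given as a description. A library with 0 reads still allows 3 reads of a gene, which corresponds to 2.01 to 3.74 normalized counts in the livers where a receptor was not detected, so that ESR2 was not shown to be absent from liver.

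PGR, a gene that oestrogen induces through ESR1 in reproductive tissues, also had few reads in liver apart from control 902. It measured 2.29, 4.16, 1.25 and 7.56 normalized counts in BPA livers 910, 918, 977 and 984, from 3, 2, 1 and 9 reads. Control livers 908, 924 and 928 held 1.38, 0 and 0, and control liver 902 held 299.6 from 159 reads. Muscle values were even, at 66.9, 76.0, 61.8 and 66.5 in BPA sheep and 70.6, 56.5, 73.9 and 60.5 in controls. PGR was lower in liver by a log2 difference of -3.84 (SE 0.90, adjusted p = 0.00115). Without sheep 902 the difference was -4.80, but PGR then reached the filter mean of 10 only through muscle and so had to differ. With all animals, edgeR on the recovered reads gave -1.94 and an adjusted p of 0.0891. The same liver that held PGR also held the most fibroblast and stellate cell marker RNA, with a log2 deviation of 4.23 from the mean of the livers for the median of 10 markers, against -1.61 to 0.15 in the others. The part of those cells in its PGR level was not tested. In bulk tissue, fewer cells of a type and less RNA per cell cannot be told apart.

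Both corticoid receptors were lower in liver than in muscle and did not overlap between the tissues. NR3C1 measured 1235, 2061, 1032 and 1049 normalized counts in BPA livers 910, 918, 977 and 984 and 465, 998, 1331 and 1254 in control livers 902, 908, 924 and 928, with control 902 the lowest. Muscles lay in a narrow band, at 2637, 2506, 2619 and 2479 in BPA sheep and 2763, 2714, 2535 and 2489 in controls. The log2 difference was -1.24 (SE 0.21, adjusted p = 5.26e-05). NR3C2, whose product binds aldosterone and also cortisol, measured 148, 164, 231 and 316 in BPA livers and 215, 103, 88.9 and 144 in control livers in the same order. Its muscle levels were 725, 692, 705 and 677 in BPA sheep and 740, 611, 875 and 740 in controls, and the log2 difference was -2.13 (SE 0.19, adjusted p = 4.94e-08). The coefficient of variation of NR3C1 in muscle was 3.10% in the BPA group and 5.09% in controls, below the median gene of each group. That of NR3C2 was 2.93% in BPA muscles, also below the median gene, and 14.6% in control muscles, above it.

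The 3 oestrogen-related receptors were lower in liver than in muscle. ESRRA, which in mice drives genes of oxidative metabolism, measured 1359, 812, 1165 and 965 normalized counts in BPA livers 910, 918, 977 and 984 and 271, 1686, 1421 and 1295 in control livers 902, 908, 924 and 928. Its muscle levels were 2171, 3288, 2000 and 2714 in BPA sheep and 2785, 2254, 2099 and 2513 in controls. Every muscle lay above every liver, and control liver 902 was the lowest of all 16 libraries. The log2 difference was -1.28 (SE 0.30, adjusted p = 0.00122).

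ESRRB, best known from embryonic stem cells in mice, measured 26.0, 10.4, 0 and 4.20 in BPA livers and 3.77, 17.2, 9.24 and 3.36 in control livers, each from 34 reads or fewer. In muscle it measured 66.9, 130, 42.1 and 94.0 in BPA sheep and 125, 63.2, 76.3 and 106 in controls (log2 difference -3.57). ESRRG, known in mice for the oxidative fibre programme of skeletal muscle, had the widest gap of the 9 receptors. It measured 2.29, 8.33, 0 and 0.840 in BPA livers and 11.3, 0, 0 and 0.671 in control livers, from 15 reads in all 8 livers together. Muscles held 140, 145, 116 and 123 in BPA sheep and 157, 129, 195 and 191 in controls, and the log2 difference was -5.94.

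**Figure D1:**
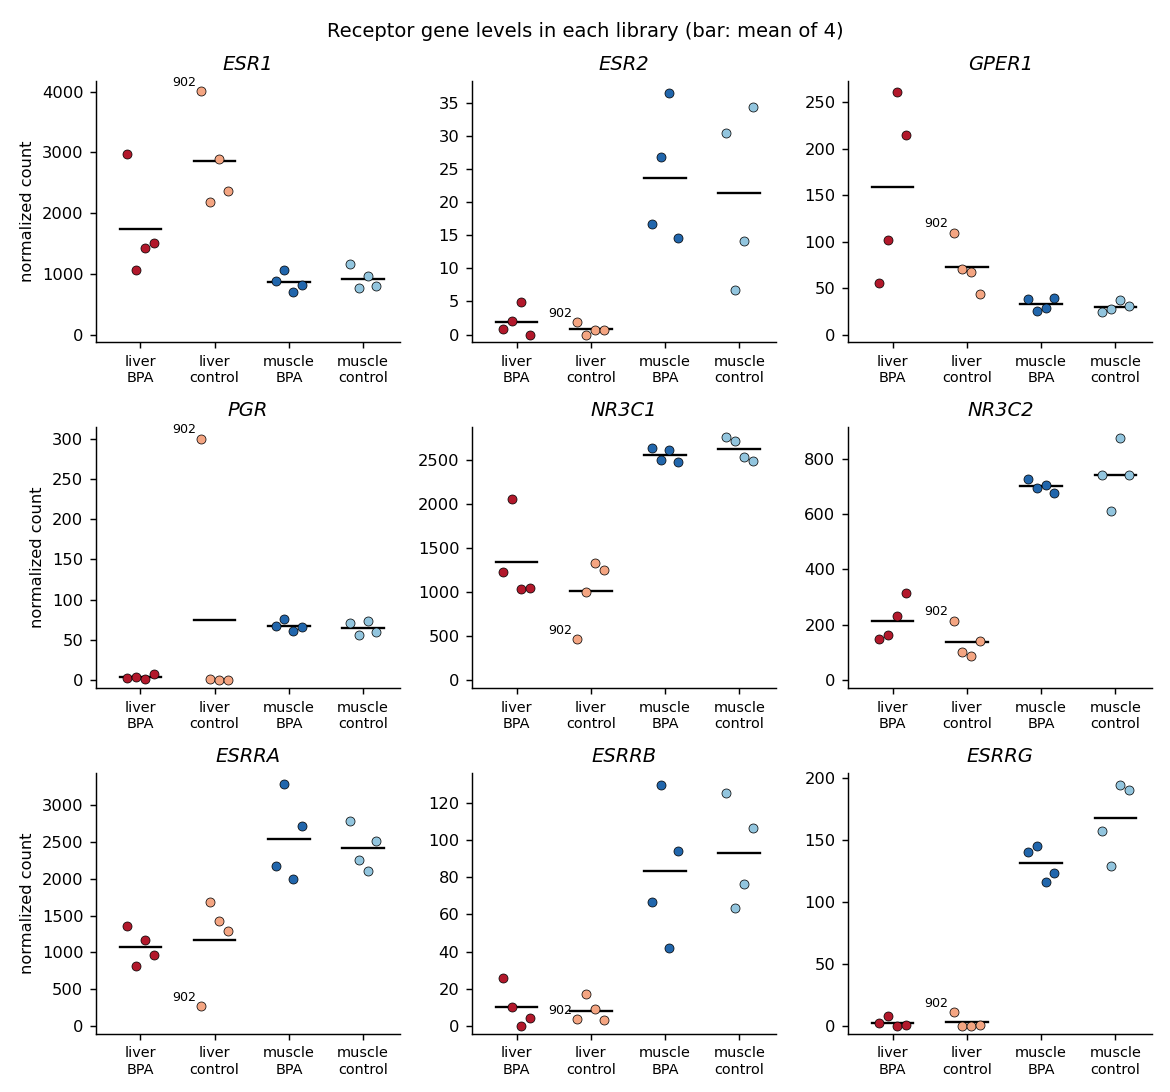
Normalized counts of the 9 receptor genes in each library, with BPA left of control in liver and then in muscle, and the group means as bars. ESR1 and GPER1 lie higher in liver, the other 7 lie lower there, and control liver 902 lies far above the other livers for PGR at 299.6.

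The receptors with a mean of at least 10 in each tissue that did not lean on a single library were ESR1, GPER1, NR3C1, NR3C2 and ESRRA. Of these 5, 2 were called higher in liver and 3 lower at an adjusted p of 0.05, where 36.1% of all genes were called higher and 35.3% lower, so that a call between these tissues was the common case. The libraries of the tissues did not overlap for GPER1, NR3C1, NR3C2 and ESRRA, against 41.6% of all genes. With the tissues paired within each animal, the exact two-sided permutation test gave p = 0.00781 for each of the 5, the smallest value that 8 pairs can give, and p = 0.0156 for PGR.

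**Figure D2:**
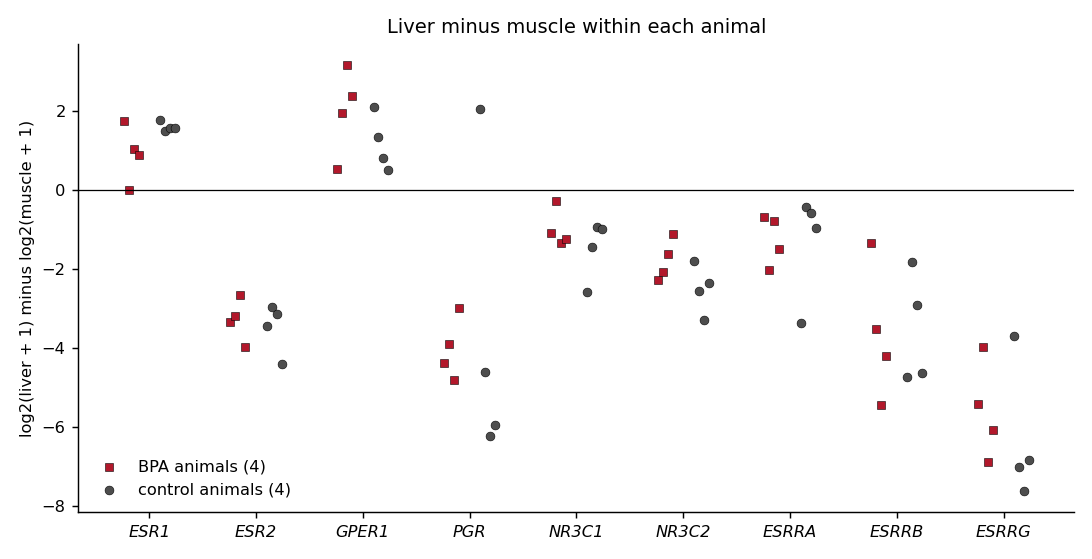
Log2 difference of liver minus muscle within each animal for the 9 receptor genes, with BPA sheep and control sheep marked apart. ESR1 and GPER1 lie above 0 in every animal, with ESR1 of BPA sheep 918 at 0.01, and the other receptors lie below 0 in every animal except PGR in control sheep 902.

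In liver 0 of the 6 receptors tested passed the test of BPA against control by limma, as did 0% of all genes. ESR1 averaged 1743 ± 843 normalized counts in BPA livers and 2864 ± 823 in control livers (SD, n = 4 each). BPA livers 918, 977 and 984 lay below all 4 controls, and BPA 910 lay above 3 of them. The log2 difference was -0.78 (SE 0.39, 95% interval -1.65 to 0.08, adjusted p = 0.300). GPER1 averaged 158 ± 95.4 in BPA livers and 72.7 ± 27.2 in control livers, a log2 difference of 0.94 (SE 0.51, 95% interval -0.19 to 2.08, adjusted p = 0.329). BPA livers 977 and 984 were the highest, and BPA 910 lay below 3 of the 4 controls.

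NR3C2 averaged 215 ± 76.2 in BPA livers and 137 ± 56.6 in control livers, a log2 difference of 0.66 (SE 0.37, 95% interval -0.17 to 1.49, adjusted p = 0.342). NR3C1 averaged 1344 ± 487 and 1012 ± 391 in BPA and control livers, with a log2 difference of 0.46 (SE 0.40, 95% interval -0.44 to 1.36, adjusted p = 0.530). Without control 902, the lowest liver, the NR3C1 difference was 0.12. ESRRA averaged 1075 ± 238 in BPA livers and 1168 ± 620 in control livers, and its log2 difference of 0.14 (SE 0.55, adjusted p = 0.901) was opposite in sign to the difference of the means. With edgeR it was -0.14 and with DESeq2 -0.11, and neither was called. PGR differed by -0.28 (SE 1.72, adjusted p = 0.939) in limma, by -4.29 in edgeR (adjusted p = 0.282) and by -4.31 in DESeq2, which gave no adjusted p. Without control 902 it fell under the filter. ESR2, ESRRB and ESRRG were under the filter, and exact two-sided permutation tests of 4 against 4 gave p = 0.371 for ESR2, 0.857 for ESRRB and 0.743 for ESRRG.

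Of the 6 receptors tested in liver, 0 were called by limma, edgeR or DESeq2, which gave no adjusted p for PGR. In limma 0 had an unadjusted p under 0.05. Limma and edgeR each called 0% of 15689 genes, DESeq2 called 190 (1.21%), and 18.1% had an unadjusted p under 0.05 in limma. No receptor separated the 4 BPA livers from the 4 controls, against 7.61% of all genes. The intervals of ESR1, GPER1, NR3C1, NR3C2 and ESRRA each spanned more than a log2 unit, so that these data bound a change in liver only loosely.

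**Figure D3:**
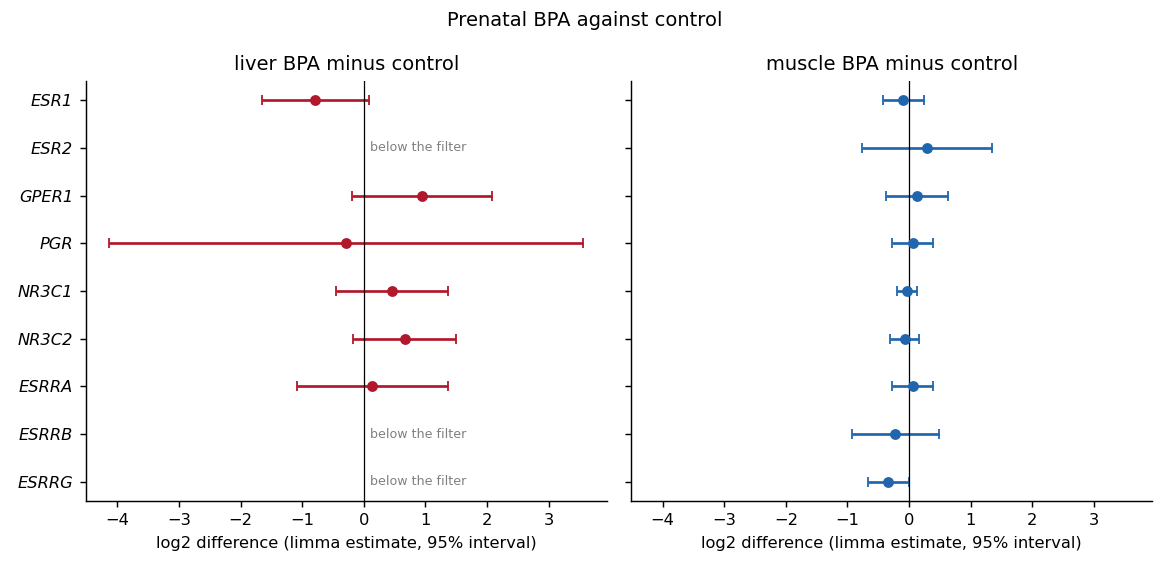
Log2 difference of BPA minus control with its 95% interval for each receptor gene, liver and muscle shown apart. Every liver interval crosses 0, and the muscle interval is the narrower for each receptor tested in both tissues, with ESRRG at -0.34 the only one that does not reach 0.

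The calls in liver rested on which libraries were compared. Without control 902 alone, 0 of the 5 receptors tested were called by limma, as were 0 of 15283 genes. ESR1 then differed by -0.61, NR3C2 by 0.90, GPER1 by 1.16 and ESRRA by -0.47. The calls without BPA 910 that follow are a description, since that liver was picked out for lying close to controls. Without BPA 910, ESR1 differed by -1.08 and was called (adjusted p = 0.0492), 1 receptor against 16.5% of all genes. Without both BPA 910 and control 902, 3 of the 5 receptors tested were called, against 43.1% of all genes. They were ESR1 at -0.90 (adjusted p = 0.0121), NR3C2 at 1.06 (adjusted p = 0.0262) and GPER1 at 1.58 (adjusted p = 0.0135), while ESRRA stood at -0.59 (adjusted p = 0.0551). The BPA livers then had 4.66 to 10.64 M reads and the control livers 17.93 to 19.28 M, so that treatment and depth cannot be told apart in that comparison. With depth class as a covariate over all 8 livers, ESR1 differed by -0.67, NR3C2 by 0.26, GPER1 by 0.31, NR3C1 by 0.77, ESRRA by 0.87 and PGR by -2.36, and 0 receptors were called.

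Cell type markers also varied from liver to liver. Hepatocyte markers deviated from the mean of the livers by log2 values of 1.36 in BPA 910, -0.76, -0.93 and -1.08 in BPA 918, 977 and 984, -3.05 in control 902 and 1.21 to 1.73 in the other controls. Macrophage markers deviated by 0.45, -2.12, -1.34 and -0.73 in BPA livers 910, 918, 977 and 984 and by 0.64 to 1.48 in controls, and their summed level was 733 to 3642 normalized counts in BPA livers and 4276 to 7194 in controls. Of 10 fibroblast and stellate cell markers 10 had a lower estimate in BPA livers and 0 were called, against 7949 of all 15689 genes lower. Their sums were 3412 to 6586 in BPA livers and 6935 to 122325 in controls. No hepatocyte, macrophage or fibroblast marker was at 0 in any liver. The part of cell makeup in the receptor values was not tested.

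**Figure D4:**
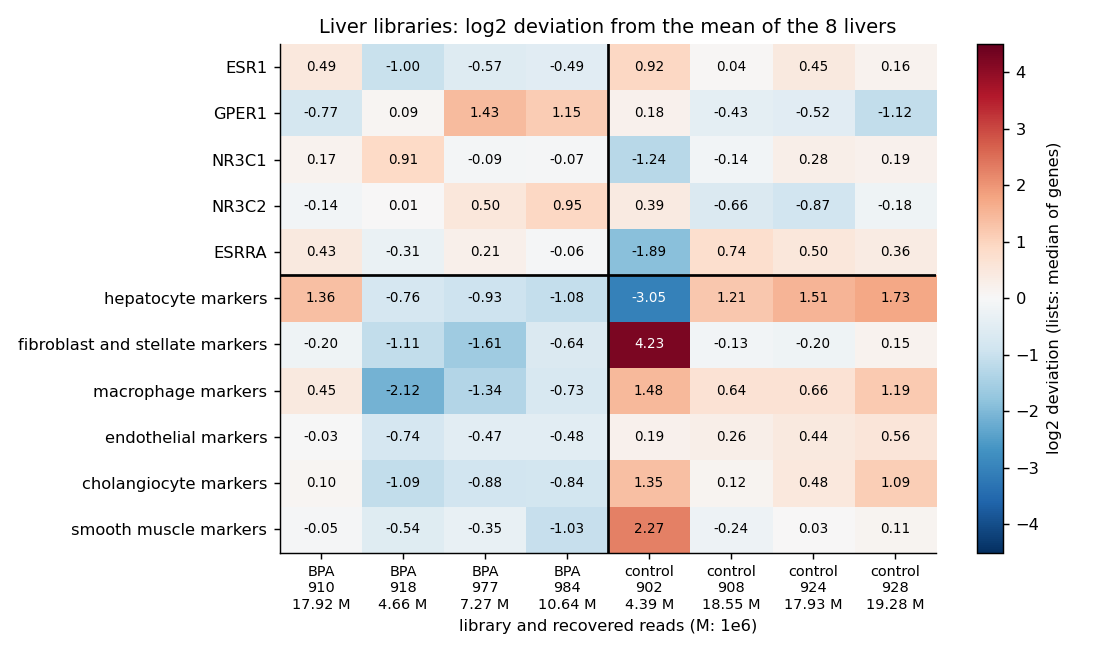
Log2 deviation from the mean of the 8 livers for 5 receptor genes (above the line) and for the median of each cell type marker list (below it), with 4 BPA livers left of 4 control livers and recovered reads (M, 1e6) under each. Control 902 has the lowest hepatocyte markers at -3.05 and the highest fibroblast markers at 4.23, and BPA 910 resembles control livers 908, 924 and 928 in the sign of most entries.

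In muscle 0 of 9 receptors were called between BPA and control by limma, against 0.129% of all genes. ESRRG lay nearest to a difference. It averaged 131 ± 13.6 normalized counts in BPA muscles and 168 ± 30.9 in control muscles, with control 908, at 129, inside the BPA range of 116 to 145 and the other 3 controls above it. The log2 difference was -0.34 (SE 0.15, 95% interval -0.67 to -0.01, unadjusted p = 0.0455, adjusted p = 0.630).

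ESR1 averaged 860 ± 150 in BPA muscles and 923 ± 180 in control muscles, a log2 difference of -0.10 (95% interval -0.43 to 0.24, adjusted p = 0.913). NR3C1 averaged 2561 ± 79.4 in BPA muscles and 2625 ± 134 in controls, and its interval, -0.20 to 0.13, was the narrowest of the 9. NR3C2 averaged 700 ± 20.5 in BPA muscles and 742 ± 108 in controls, with an interval of -0.30 to 0.16. ESRRA averaged 2543 ± 583 in BPA muscles and 2412 ± 301 in controls, with an interval of -0.27 to 0.39. GPER1 averaged 32.8 ± 7.12 in BPA muscles and 29.8 ± 5.71 in controls, with an interval of -0.37 to 0.63. PGR differed by 0.06 (SE 0.15), ESR2 by 0.29 (SE 0.48) and ESRRB by -0.22 (SE 0.32). The adjusted p of the receptors other than ESRRG ran from 0.907 to 0.946 in limma.

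Of 9 receptors tested in muscle, 0 were called by limma, edgeR or DESeq2, and 1, ESRRG, had an unadjusted p under 0.05. Limma and edgeR each called 19 of 14706 genes, or 0.129%, DESeq2 called 131 (0.891%), and 7.77% had an unadjusted p under 0.05. None of the 9 separated the groups, against 4.53% of all genes. The difference between the BPA effect in liver and that in muscle was tested for the 6 receptors with a mean of at least 10 in each tissue. It was -0.69 (SE 0.40, adjusted p = 0.333) for ESR1, 0.73 (SE 0.38, adjusted p = 0.290) for NR3C2, 0.82 (SE 0.58, adjusted p = 0.419) for GPER1 and 0.49 (SE 0.41, adjusted p = 0.493) for NR3C1. For ESRRA it was 0.08 (SE 0.60), and for PGR it was -0.34 in limma, -4.13 in edgeR and -4.26 in DESeq2. Without sheep 902 it was 0.13 for NR3C1 and -0.59 for ESRRA. Limma and edgeR called 0 of the 6 and 0% of 13677 genes, and 0 of the 6 had an unadjusted p under 0.05, against 19.5% of all genes. DESeq2 called 0 of the 6, with no adjusted p for PGR, and 148 genes (1.08%). The effects were thus not shown to differ between the tissues.

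The ratio of receptors within a library does not depend on the scaling of that library. These 3 ratios were chosen after the values were seen, and 9 tests were made of them. ESR1 over GPER1 was 53.3, 10.4, 5.49 and 7.02 in BPA livers 910, 918, 977 and 984 and 36.7, 30.7, 43.3 and 54.4 in control livers 902, 908, 924 and 928. BPA livers 918, 977 and 984 lay below every control, and BPA 910 lay among the controls. The exact two-sided permutation test gave p = 0.114 (adjusted over the 9 tests 0.257), and 4 against 4 cannot go below 0.0286. In muscle the ratio was 20.3 to 41.7 in BPA sheep and 25.8 to 47.6 in controls.

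ESR1 over NR3C1 was 0.515 to 2.41 in BPA livers and 1.89 to 8.62 in control livers (p = 0.114, adjusted 0.257, exact permutation test). The 8 livers lay at 0.515 to 8.62 and the 8 muscles at 0.266 to 0.421, without overlap, a log2 difference of 2.51 (exact permutation p = 0.00781, adjusted 0.0703). ESR1 was higher and NR3C1 lower in the liver of every animal, so this ratio had to differ between the tissues and is a description. NR3C1 over NR3C2 was 2.17 to 14.98 in livers and 2.90 to 4.44 in muscles. In BPA muscles it stayed within 3.62 to 3.72.

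Around the receptors, the genes of hormone supply were higher in liver and the targets of the oestrogen-related receptors were mostly lower. A gene that averaged under 10 in 1 tissue passed the filter only through the other, so its tissue difference is a description. The list counts and medians below, like the shares of all genes, include such genes and are partly fixed by the filter. Of the genes named below this held for FGF21, PERM1, MB, TRIM63, CA12 and NR0B2. A mean of 10 in each tissue was reached by 8 ligand supply genes, 18 chaperones and 29 coregulators. It was also reached by 16 targets of the oestrogen-related, 17 of the oestrogen and 22 of the glucocorticoid receptors. Of 9 tested genes for ligand supply and carriers 9 were higher in liver, with a median log2 difference of 3.04, where 36.1% of all 15995 genes were called higher and their median was 0.06. HSD11B1, the enzyme that restores cortisol from cortisone, measured 10595 ± 7375 normalized counts in liver and 139 ± 54.2 in muscle (SD over 8 libraries of a tissue; adjusted p = 1.09e-08). AKR1D1, a steroid reductase of bile acid synthesis, measured 2149 ± 1261 in liver and 19.5 ± 8.45 in muscle (adjusted p = 3.45e-09). SHBG, known as the sex hormone binding globulin of plasma, measured 1217 ± 685 in liver and 56.7 ± 7.48 in muscle (adjusted p = 1.25e-08).

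Of 19 tested target genes of the oestrogen-related receptors 2 were higher in liver and 14 lower, against 36.1% and 35.3% of all genes, with a median of -3.05. ESRRA is itself in that list. PERM1, MB and FGF21 are in these counts, though they passed the filter only through the tissue where they are high and so had to differ. PERM1, a muscle regulator that acts with PGC-1 and these receptors in mice, measured 7.97 ± 3.53 in liver and 7298 ± 888 in muscle. CS, the citrate synthase of the Krebs cycle, measured 389 ± 160 in liver and 7273 ± 1084 in muscle, and MB, or myoglobin, 4.45 ± 6.68 in liver and 133243 ± 32283 in muscle. The 2 that were higher were FGF21, a fasting hormone of liver, at 428 ± 376 in liver and 0.855 ± 1.05 in muscle, and VEGFA, the vascular growth factor, at 5014 ± 2863 in liver and 2965 ± 453 in muscle (adjusted p = 0.0181, and 0.0842 without sheep 977 and 0.0569 without sheep 984). PPARGC1B, a PGC-1 coactivator, measured 155 ± 48.7 in liver and 1465 ± 237 in muscle.

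Of 23 tested glucocorticoid receptor targets 6 were higher in liver and 12 lower, against 36.1% and 35.3% of all genes, with a median of -0.67. The higher ones included the gluconeogenic enzyme gene PCK1, by 7.53, TAT, which encodes tyrosine aminotransferase, by 6.62, and ERRFI1, an inhibitor of the EGF receptor, by 4.76. Among the lower were the muscle ubiquitin ligase genes TRIM63, by -11.63, and FBXO32, by -6.42, and TXNIP, an inhibitor of thioredoxin, by -2.82. Of 19 oestrogen receptor targets 8 were higher and 5 lower, near those shares, with a median of 0.02. PDZK1, a scaffold protein, AGT, the angiotensinogen gene, and IGFBP4, a binding protein of insulin-like growth factors, were higher by 5.57, 6.40 and 3.93. CA12, a carbonic anhydrase, BCL2, an inhibitor of apoptosis, and the corepressor NRIP1 were lower by -5.12, -1.50 and -0.68.

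Of 18 HSP90 chaperone genes 2 were higher in liver and 12 lower (median -1.01), against 36.1% and 35.3% of all genes. HSP90AB1, which encodes HSP90 beta, measured 2557 ± 1252 in liver and 7078 ± 694 in muscle. STUB1, a ubiquitin ligase, and BAG1, a cochaperone, were also lower, and the HSP40 genes DNAJA1 and DNAJB1 were higher. Of 30 coregulators 6 were higher and 16 lower against the same shares (median -0.41). The coactivator NCOA2 measured 2773 ± 368 in liver and 1150 ± 78.2 in muscle. NR0B2, the corepressor SHP of bile acid synthesis, and DDX5, an RNA helicase, were higher as well, and PNRC1, a coactivator, and PRMT1, an arginine methyltransferase, were lower by -2.63 and -1.91.

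**Figure D5:**
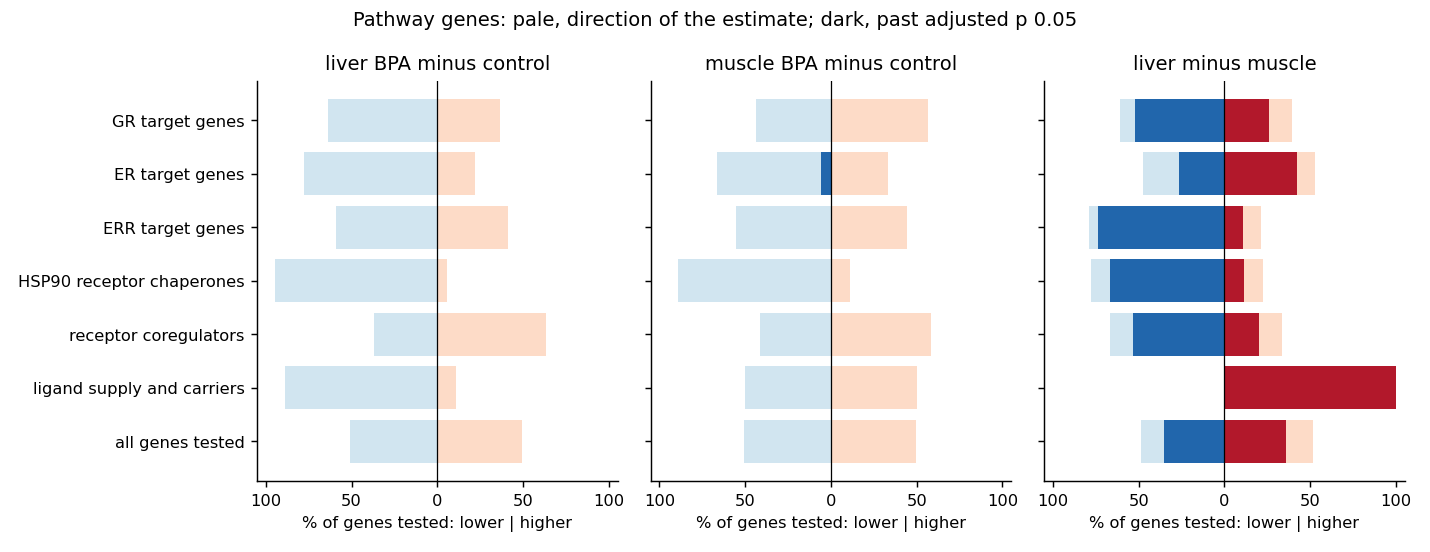
Direction of the log2 differences of the tested genes of 6 pathway lists, for BPA minus control in liver and in muscle and for liver minus muscle. The ligand supply list lies above 0 between tissues with a median of 3.04. The targets of the oestrogen-related receptors lie mostly below 0 there, with a median of -3.05. Genes that passed the filter only through the tissue where they are high are included. For BPA in muscle the list medians lie between -0.09 and 0.04.

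With the livers fitted alone, none of the pathway genes was called between BPA and control by limma, as was 0% of all genes. The median log2 differences were -0.56 for 18 chaperones, -0.45 for 18 oestrogen receptor targets, -0.31 for 22 glucocorticoid receptor targets, -0.18 for 9 genes of ligand supply, -0.06 for 17 targets of the oestrogen-related receptors and 0.12 for 30 coregulators. The median of all genes was -0.01. Marker lists of the same livers had medians of -0.46 for hepatocytes, -0.78 for endothelium, -1.24 for cholangiocytes, -1.69 for macrophages and -2.12 for fibroblasts and stellate cells. Skeletal muscle fibre markers went the other way, with a median of 0.99 over 5 genes tested. The part of these cell types in the pathway lists was not tested. Without control 902 the medians were -0.73 for oestrogen receptor targets, -0.41 for targets of the oestrogen-related receptors and -1.08 for ligand supply. The marker medians were then -1.78 for hepatocytes, -0.82 for endothelium, -1.59 for cholangiocytes, -2.01 for macrophages and -0.93 for fibroblasts and stellate cells. Those of skeletal muscle fibres (5 genes) and nerve (2 genes) were 1.55 and 0.97. Of the chaperones 17 of 18 had a lower estimate and 0 were called, where 7949 of all 15689 genes had a lower estimate. HSP90AB1 averaged 1552 ± 574 normalized counts in BPA livers and 3561 ± 800 in control livers (adjusted p = 0.256). Its groups did not overlap, as for 7.61% of all genes. AHSA1, which activates the ATPase of HSP90, averaged 335 ± 89.3 in BPA livers and 634 ± 245 in control livers (adjusted p = 0.258).

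CTSD, the cathepsin D gene and an oestrogen target in human breast cells, averaged 2406 ± 1725 in BPA livers and 6395 ± 1406 in control livers, and CCND1, the cyclin D1 gene, 428 ± 268 in BPA livers and 817 ± 92.3 in control livers. CS averaged 257 ± 67.9 in BPA livers and 521 ± 91.9 in control livers, without overlap, as for 7.61% of all genes. FHL2, a coregulator of nuclear receptors, averaged 41.3 ± 2.80 in BPA livers and 76.5 ± 21.5 in control livers, also without overlap (adjusted p = 0.256 to 0.258 for these 4). PER1, a clock gene that glucocorticoids induce, averaged 4181 ± 1417 in BPA livers and 2315 ± 1032 in control livers (adjusted p = 0.295). TXNIP averaged 2020 ± 515 in BPA livers and 3132 ± 451 in control livers, also without overlap (adjusted p = 0.291). ATP5F1B, a subunit gene of ATP synthase, averaged 1688 ± 2018 in BPA livers and 5034 ± 2529 in control livers (adjusted p = 0.258). PNRC2, a coactivator gene, averaged 843 ± 450 in BPA livers and 1386 ± 204 in control livers (adjusted p = 0.275). SHBG averaged 899 ± 372 in BPA livers and 1535 ± 828 in control livers (adjusted p = 0.649). HSD17B1, which encodes an enzyme that makes oestradiol from oestrone, averaged 33.9 ± 8.31 in BPA livers and 60.2 ± 31.5 in control livers (adjusted p = 0.461). Without control 902 the log2 difference of SHBG was -1.19, against -0.52 with it, and that of HSD17B1 -1.08, against -0.65 (adjusted p = 0.131 for both).

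Without BPA 910 alone, CTSD, CCND1, CS and HSP90AB1 were called lower (adjusted p = 0.0113, 0.0202, 0.0189 and 0.0184), as were ATP5F1B and PNRC2 (0.0228 and 0.0300). Of all 15741 genes tested without BPA 910, 1440 were called lower and 1155 higher. Without both control 902 and BPA 910, 9 of the coregulators were called higher and 4 lower, 0 and 7 of the chaperones, 1 and 8 of the oestrogen receptor targets, 1 and 6 of the glucocorticoid receptor targets, 3 and 7 of the targets of the oestrogen-related receptors, and 0 and 7 of the ligand supply genes. Of all 15296 genes 3007 were called higher and 3587 lower. Depth differed between the groups in that comparison as described for the receptors. As there, the calls without BPA 910 are a description.

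In muscle the medians of the 6 lists lay between -0.09 and 0.04, and 1 gene was called between BPA and control. CA12 averaged 155 ± 24.3 normalized counts in BPA muscles and 379 ± 93.3 in control muscles, without overlap, a log2 difference of -1.26 (SE 0.18, adjusted p = 0.0251). Of all genes tested 0.116% were called lower, and 4.53% did not overlap between the groups. Its estimate lay between -1.43 and -1.13 when each library was left out in turn. The adjusted p then rose above the threshold without control 902 (0.0646), control 924 (0.0976), BPA 918 (0.0660), BPA 977 (0.0837) or BPA 984 (0.106).

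DUSP1, a phosphatase gene that glucocorticoids induce, averaged 5609 ± 722 in BPA muscles and 3381 ± 1204 in control muscles (log2 difference 0.78, adjusted p = 0.243). It was called by DESeq2 (adjusted p = 0.0422) and by limma without control 928 (adjusted p = 0.00794). Of all genes DESeq2 called 0.891%, and limma without control 928 called 28 of 14716. NRIP1 averaged 1119 ± 37.2 in BPA muscles and 1501 ± 248 in control muscles, without overlap, as for 4.53% of all genes (adjusted p = 0.277). FHL2 averaged 124 ± 51.6 in BPA muscles and 63.5 ± 14.5 in control muscles (adjusted p = 0.398). Its BPA effect in liver minus that in muscle was -1.72 (SE 0.42, adjusted p = 0.195), the smallest unadjusted p of the lists for that difference. It was called by DESeq2 (adjusted p = 0.0203) and by limma without sheep 910 (adjusted p = 0.0155). Of all genes DESeq2 called 1.08%, and limma without sheep 910 called 3020 of 13653. The call without sheep 910 is a description, as in liver.

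VEGFA averaged 3226 ± 467 in BPA muscles and 2703 ± 281 in control muscles (adjusted p = 0.662), and MFN2, a gene of mitochondrial fusion, 8188 ± 1103 in BPA muscles and 9146 ± 580 in control muscles (adjusted p = 0.764). DNAJA1 averaged 242 ± 11.3 in BPA muscles and 205 ± 17.98 in control muscles, without overlap, as for 4.53% of all genes (adjusted p = 0.595). STUB1 averaged 1269 ± 160 in BPA muscles and 1468 ± 80.2 in control muscles (adjusted p = 0.641), and HSD17B1 23.5 ± 7.42 in BPA muscles and 16.2 ± 8.76 in control muscles (adjusted p = 0.773).

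The difference between the BPA effects in liver and in muscle was called by limma for 0 genes of the 6 lists, as for 0% of all genes. With FHL2 the smallest p of the lists belonged to HSP90AB1 at -1.15 (adjusted p = 0.195), HSP90AA1 at -1.08 (0.244), PNRC2 at -0.89 (0.232), CTSD at -1.42 (0.205), NRIP1 at 0.68 (0.238) and CS at -0.90 (0.201). The others were ATP5F1B at -1.84 (0.251), DUSP1 at -1.35 (0.220), TXNIP at -0.79 (0.237), HSD17B1 at -1.28 (0.295) and SRD5A1, a steroid reductase gene, at -0.59 (0.616). Without sheep 910 those of CTSD, CS, ATP5F1B, HSP90AB1 and PNRC2 were called (adjusted p = 0.00178, 0.00941, 0.0119, 0.00599 and 0.00800). So were 3020 of all 13653 genes tested. These calls are a description, since sheep 910 was picked out for a liver that lay close to controls.

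TAT averaged 20.8 ± 5.25 in BPA muscles and 36.6 ± 9.88 in control muscles, without overlap, as for 4.53% of all genes (adjusted p = 0.467). AKR1D1 averaged 14.8 ± 7.38 in BPA muscles and 24.2 ± 7.24 in control muscles (adjusted p = 0.649). Both are genes of liver. Hepatocyte marker RNA in the same muscles summed to 4501 to 9699 normalized counts in the BPA group and 9138 to 14501 in controls. Of 9 markers 9 were lower by estimate and 1 was called. Of all 14706 genes 7423 were lower by estimate and 0.116% were called lower. The part of that RNA in the TAT and AKR1D1 values was not tested.

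The receptors' profiles over the 8 libraries of a tissue were also set against the other genes tested there, as a description with no test. Genes named only by a LOC number were left out of this search. In liver, where control 902 had the lowest or highest value of ESR1, NR3C1, ESRRA and PGR, the genes most like each receptor were CAPN2 for ESR1 (Pearson r = 0.99), ZFYVE9 for NR3C1 (0.99), CENPH for NR3C2 (0.96), HEATR6 for GPER1 (0.99), PEX5 for ESRRA (0.997) and DKK1 for PGR (0.99). In muscle they were PDXK for ESR1 (0.97), ENHO for ESR2 (0.97), SMG6 for PGR (0.98), PRMT3 for NR3C1 (0.95), B3GALT1 for NR3C2 (0.96), MTMR3 for GPER1 (0.98), UBB for ESRRA (0.99), ARMC6 for ESRRB (0.98) and FBXL5 for ESRRG (0.96). With 8 libraries and so many genes compared, high values of r are common.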

How the data were processed

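Libraries were made from ribosome-depleted RNA with a low-input kit, per the labels' protocols, and Trimmomatic, FastQC and DESeq2 1.24.0 were used, per the submitters' processing notes. The sources used here do not name the aligner, counter, annotation, build or strandedness, so reads shared with near-identical copies or overlapping antisense genes cannot be told apart. The deposited values are a signal per gene: the authors' read counts divided by a size factor for each library. Whole reads were recovered from their steps (at least 99.993% of values whole within 0.1 read). All deposited columns were used.

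Differences were tested with limma 3.58.1 (R 4.3.3; trended eBayes) on log2(value + 1), which understates changes of low genes, keeping genes that averaged 10 or more, with Benjamini-Hochberg adjustment over all genes tested and a threshold of 0.05. Each tissue was fitted alone for BPA against control (8 libraries) and all 16 together for the contrasts of tissue. The 16-library fits had no term for the animal, so they left the pairing of tissues unused, except in the alternative with a replicate block. edgeR 4.0.16 and DESeq2 1.42.0 on the recovered reads, other pseudocounts, filters and scalings, and leaving out libraries were alternatives. Scripts were tested on simulated data. An adjusted p is from limma unless another tool is named. Libraries are named by sheep number, and intervals for reads cover counting error only. Within a tissue p-values measure the spread between sheep. In the 16-library fits they measure the spread of libraries within groups, pooled over both tissues. Values are not adjusted for gene length, so levels of different genes were not compared.

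The receptors, the lists of pathway and marker genes and the rules were chosen with earlier results of these data known. Of each list and comparison the text names up to 3 called genes per direction by smallest p, or the 2 smallest p where none passed. Of the listed names 14 had no row under that symbol and were not analysed here. Names were checked against RefSeq, in which all 9 receptors were found. The same sheep number marks the same animal in both tissues, per the labels. Deviations from group means correlated by -0.10 to 0.12 between an animal's tissues, so the pairing rests on the labels.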

Additional observations from a re-analysis of the deposited data

Results flagged for a closer look

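Among 36 groups of 4 libraries (9 receptors in 4 groups), 2 held a library far from the other 3 by Dixon's test at 95%. Chance gives about 1 in 20. PGR measured 299.613 normalized counts in control liver 902, from 159 reads, and 1.38 or less in the other control livers. ESRRG measured 11.3 in the same liver, from 6 reads, and 0.671 or less in the other 3. Control liver 902 is also the liver with the highest fibroblast and stellate cell markers and the lowest hepatocyte markers, and their part in these values was not tested.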

How the results depend on the processing

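The count of called receptors stayed at 0 in muscle and for the difference between tissues under every alternative run. Between tissues it stayed at 9, with 3 fixed by the filter and PGR too without sheep 902. The exceptions were 8 with edgeR, 8 with DESeq2 and 7 with a mean of at least 50, which leaves 7 to test. With the animal as a replicate block the count was 9 between tissues and 0 for the difference (11091 genes called between tissues, against 11420). In liver it ran from 0 to 1 when each library was left out and was 3 without control 902 and BPA 910. PGR between tissues was lost with edgeR (-1.94, adjusted p = 0.0891; DESeq2 gave no adjusted p).

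Signs that turned belonged to differences that were not called. In liver they were PGR with a pseudocount of 0.5 (0.10), ESRRA with edgeR (-0.14), DESeq2 (-0.11) and both livers left out (-0.59), and SHBG with depth class as a covariate (0.41). For the difference between tissues they were PGR with a pseudocount of 0.5 (0.040) and ESRRA with edgeR (-0.14) and DESeq2 (-0.17). Leaving out each library gave -0.47 to 0.41 for ESRRA and -1.07 to 0.025 for PGR in liver (PGR falls under the filter without control 902), and -0.59 to 0.38 for ESRRA in the difference between tissues. In muscle it gave -0.20 to 0.019 for ESR1, -0.14 to 0.59 for ESR2, -0.011 to 0.12 for PGR, -0.16 to 0.011 for NR3C2, -0.076 to 0.16 for ESRRA and -0.47 to 0.061 for ESRRB. The cause was not tested.

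Over all genes, liver calls numbered 190 with DESeq2, 2299 with all 16 libraries in 1 fit, 2595 without BPA 910 and 6594 without both livers, against 0. In liver the 16-library fit called the named genes CTSD, CS, HSP90AB1, CCND1, AHSA1, ATP5F1B and PNRC2 lower (adjusted p = 0.0208 to 0.0455). It called 1398 of all genes lower there and 901 higher. Muscle calls numbered 131 with DESeq2 and 0 in the 16-library fit, against 19, and the fit lost CA12. Calls for the difference numbered 148 with DESeq2, 3020 without sheep 910 and 4 without sheep 902, against 0. The median of all genes between tissues was 0.06, and 0.20 with edgeR and 0.15 with DESeq2. Depth class as a covariate and control 902 alone left out for the lists were chosen after results were known. Liver receptors with under 10 normalized counts rest on a few reads each.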

Other observations

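Receptors were also compared with each other over the 8 libraries of a tissue, as a description without a test. The points share library, depth and scaling. In muscle the highest Pearson r of log2 values was 0.88, between ESRRA and ESRRB, followed by 0.81 between ESR1 and PGR and 0.75 between ESR1 and ESRRB and between NR3C2 and ESRRG. In liver NR3C2 and GPER1 had r = 0.77, and PGR and ESRRA had r = -0.94, a value that control 902, highest in PGR and lowest in ESRRA, enters with the widest deviations.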
